A study of Mus musculus with 30 samples.

Results

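Alpha-cells that were made to express Pdx1 in mice whose beta-cells were then ablated (alpha Pdx1 DT, 6 libraries) were compared with mature alpha-cells that had neither change (alpha, 8 libraries), 14 of the 30 bulk RNA-seq libraries of sorted mouse islet cells. Libraries were chosen by their deposited labels alone. The alpha libraries came from 3-month-old Glucagon-Venus mice. The alpha Pdx1 DT libraries came from mice with Glucagon-rtTA, TetO-Cre, R26YFP, CAGPdx1 and RIP-DTR. Those mice received diphtheria toxin at 2 months of age, and their cells were collected 30 days afterwards. Each factor alone is held by other libraries of the series. Of these, 4 came from mice with Glucagon-Venus and RIP-DTR, 30 days after toxin given at 2 months of age (alpha DT). Another 5 came from 3-month-old mice with Glucagon-rtTA, TetO-Cre, R26YFP and CAG-Pdx1 but no toxin (alpha Pdx1). A further 7 came from Insulin-mCherry beta-cells of 3-month-old mice (beta). The comparison asks how far Pdx1 and the loss of neighbouring beta-cells together move glucagon-producing cells from their own expression programme towards that of beta-cells. The reporter strain, the rtTA and Cre transgenes, RIP-DTR and the toxin differ between the groups along with Pdx1, so their parts cannot be told apart. The Glucagon-rtTA driver confines the Pdx1 transgene to cells that have activated the glucagon promoter, and sorted cells were collected by their fluorescent reporter.

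Islet alpha-cells secrete glucagon, which raises blood glucose, and beta-cells secrete insulin, which lowers it. Both arise from common endocrine progenitors and are held apart by transcription factors, among them Irx1 and Irx2 in mature mouse alpha-cells and Pdx1, Nkx6-1 and Mafa in beta-cells. Pdx1 is a homeodomain protein that binds TAAT-containing elements, including those of insulin promoters, and is silent in most mature alpha-cells. RIP-DTR places the diphtheria toxin receptor under the rat insulin promoter, so that injected toxin kills insulin-producing cells and spares mouse cells that lack the receptor. After near-total beta-cell loss a minority of alpha-cells are known to begin insulin production.

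The deposited values are quantile-normalized log2 values, so every library has the same set of values in its own gene order. The top gene of a library is at 22.57 and the gene ranked after it at 20.54, so a difference between libraries in a hormone gene compares ranks, not RNA amounts. Depth is unknown. As a stand-in, low values took from 32 (alpha Pdx1 DT 6) to 111 (alpha 8) different levels under the first quartile, a count that deeper libraries raise. In these bulk libraries fewer expressing cells and less RNA per cell cannot be told apart. The labels do not say that libraries come from separate animals, so p-values measure only the spread between these samples, which may be technical. P-values below come from limma across 16633 genes with Benjamini-Hochberg adjustment, a gene was called at an adjusted p under 0.05, and each ± after a log2 fold change is its standard error.

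Pdx1 (GRCm38 chr5:147270097-147275848), the gene the transgene supplies, showed that 2 libraries went against their labels. In alpha it was 3.68, 5.55, 4.51, 5.61, 4.43, 3.66, 5.60 and 11.23 in the libraries numbered 1 to 8. In alpha Pdx1 DT it was 11.87, 12.59, 11.53, 11.64, 5.51 and 11.65 in the libraries numbered 1 to 6. The library labelled alpha 8 thus resembled the transgenic cells in Pdx1, whereas alpha Pdx1 DT 5 fell inside the range of the other alpha libraries. The remaining libraries did not overlap. Over genes, alpha Pdx1 DT 5 correlated with alpha 4 at r = 0.993, the highest of the 435 pairs of libraries, and the next pair among the 14 reached 0.968. The library labelled alpha 8 was closest to alpha Pdx1 1 (r = 0.958), and its median r was 0.934 with both groups compared. However, alpha 2, whose Pdx1 fits its label, was also closest to a library labelled alpha Pdx1, namely alpha Pdx1 5 (r = 0.966). That library had the lowest Pdx1 of its own group (8.61), with Ttr at 20.54 and Gcg at 22.57, as in most alpha libraries. Results are given under the deposited labels and again without these 2 libraries, which leaves 5 against 7. They were picked by Pdx1, so Pdx1 without them is a description with no test, and values of other genes without them rest on that choice. Overlap between the groups was looked at in named genes only. The share of all genes without overlap was not counted, so a lack of overlap below is a description with no test.

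In alpha Pdx1 DT, Pdx1, the insulin genes and several secretory and glucose-handling genes were higher than in alpha, transthyretin and the uroplakin gene Upk3a were lower, and the alpha-cell factors Irx1 and Irx2 were not called with all libraries. With every library under its label, 1299 of 16633 genes were called (7.81%), 676 higher (4.06%) and 623 lower (3.75%) in alpha Pdx1 DT. Without the 2 libraries the count was 3472 (20.9%), 1682 higher (10.1%) and 1790 lower (10.8%), and it held 1297 of the 1299. The median log2 fold change over all genes was -0.03 in both fits. In a limma fit of the 14 libraries alone no gene was called, with 3839 genes at an unadjusted p under 0.05, and 2626 were called there without the 2 libraries. With the ribosomal RNA level as a covariate no gene was called either (1991 at an unadjusted p under 0.05), and 1296 were called without the 2 libraries.

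**Figure D1:**
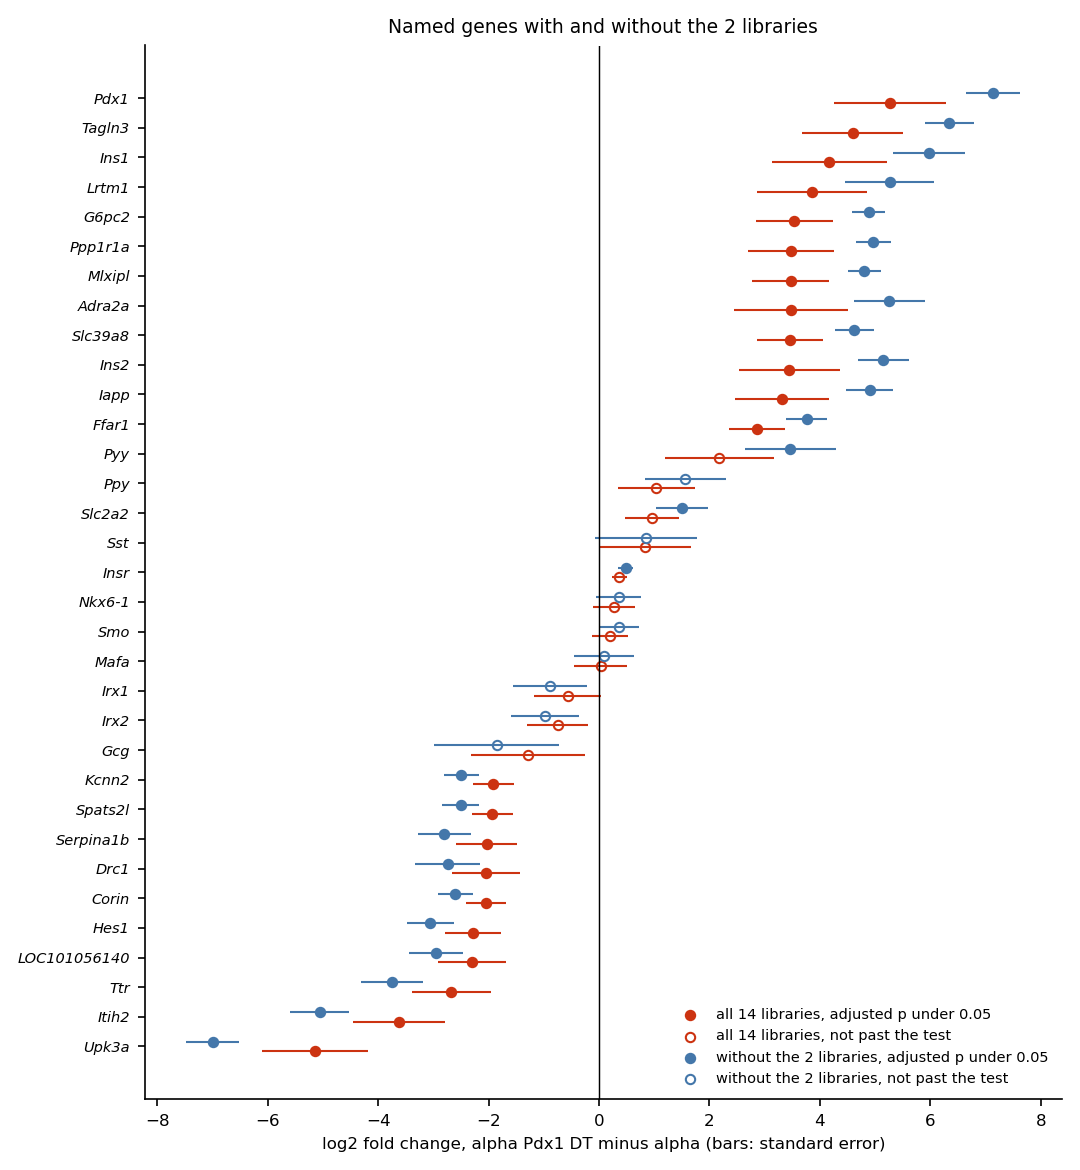
Log2 fold change of each named gene, alpha Pdx1 DT minus alpha (x axis), with all 14 libraries (red) and without the 2 libraries whose Pdx1 goes against the label (blue). Bars are standard errors and filled points have an adjusted p under 0.05. Pdx1 is at 5.26 and 7.13 and Upk3a at -5.15 and -7.00, so both ends move outwards when the 2 libraries are left out.

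Pdx1 was higher in alpha Pdx1 DT by 5.26 ± 1.01 (limma, adjusted p = 0.00666), and the difference was 7.13 without the 2 libraries. Its mean of 10.80 (SD 2.62, n = 6) lay beside 11.20 (SD 0.48, n = 7) in beta, a difference of -0.40 ± 1.05 (adjusted p = 0.825). The 5 libraries other than alpha Pdx1 DT 5 ran from 11.53 to 12.59 and the beta libraries from 10.45 to 11.77.

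The insulin genes were higher in the transgenic cells. Ins1 (chr19:52264297-52265015) ran from 11.61 through a median of 13.15 to 18.27 in alpha, and from 12.11 through 18.95 to 19.27 in alpha Pdx1 DT. The highest alpha value and the lowest combined value are the 2 libraries against their labels, and the other libraries were separated, at 14.96 or below and 18.63 or above. Ins1 rose by 4.17 ± 1.04 (adjusted p = 0.0182), and by 5.98 ± 0.65 (adjusted p = 6.38e-07) without the 2 libraries. Ins2 (chr7:142678656-142679726) rose by 3.45 ± 0.92 (adjusted p = 0.0253), with values from 12.04 to 19.27 in alpha and from 12.77 to 20.54 in alpha Pdx1 DT. Ins1 and Ins2 are near-identical copies, and how reads shared between them were counted is not given in the sources used here. Iapp (chr6:142298425-142303820), the amyloid peptide co-secreted with insulin, rose by 3.32 ± 0.85 (adjusted p = 0.0209), from a median of 13.25 to one of 17.80. The calls of these 3 genes were close to the threshold. Ins1 lost its call without alpha Pdx1 DT 1, 4 or 6 (adjusted p = 0.0514, 0.05001 and 0.0562). Ins2 lost it without alpha Pdx1 DT 1, 2, 4 or 6 or alpha 3 or 4 (adjusted p from 0.05007 to 0.0766), and Iapp without alpha Pdx1 DT 1, 2, 3, 4 or 6 (from 0.0505 to 0.0584).

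**Figure D2:**
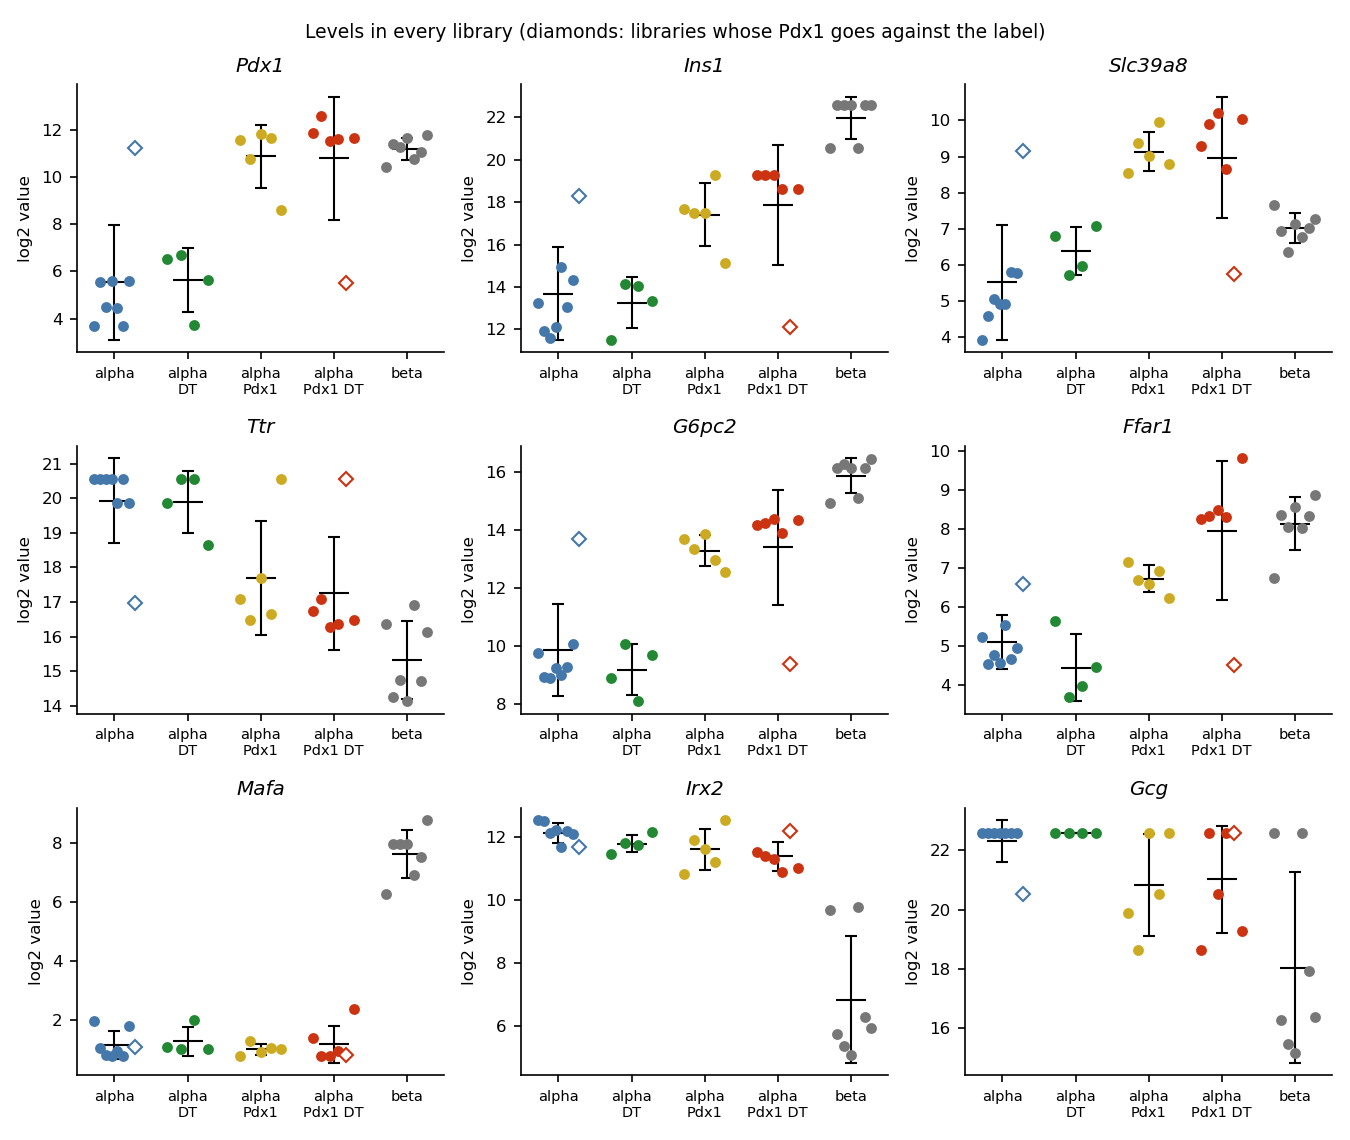
Log2 value (y axis) of 9 genes in every library of the 5 groups, with black marks for the mean and bars for the SD. Open diamonds are alpha 8 and alpha Pdx1 DT 5. Apart from those, the red points of Pdx1, Ins1, Slc39a8, G6pc2 and Ffar1 lie above all blue points and those of Ttr below them, while Mafa stays at 2.35 or below in every alpha-cell library and Irx2 at 11.51 or below in the 5 other alpha Pdx1 DT libraries.

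Other genes of beta-cell function rose with insulin. Of 21 tested beta-cell effector genes, 9 were higher and none lower, with a median log2 fold change of 1.01 against -0.03 over all genes, and 14 were higher and none lower without the 2 libraries (median 1.97). Over all genes 4.06% were higher and 3.75% lower, and 10.1% and 10.8% without the 2 libraries. G6pc2, the islet glucose-6-phosphatase that opposes glucose phosphorylation, ran from 8.92 through 9.28 to 13.70 in alpha and from 9.41 through 14.21 to 14.41 in alpha Pdx1 DT. It rose by 3.54 ± 0.70 (adjusted p = 0.00789). Ppp1r1a, an inhibitory subunit of protein phosphatase 1, rose by 3.48 ± 0.78 (adjusted p = 0.0123), from a median of 8.29 to 12.88. Ffar1, the long-chain fatty acid receptor that amplifies insulin secretion, rose by 2.86 ± 0.51 (adjusted p = 0.00459), and its median of 8.33 in alpha Pdx1 DT stood beside 8.32 in beta. These 3 genes kept their calls when any one of the 14 libraries was left out. Trpm5, a calcium-activated cation channel, rose by 2.34 ± 0.65, P2ry1, a nucleotide receptor, by 2.08 ± 0.63, and Hadh, a mitochondrial fatty acid enzyme enriched in beta-cells, by 1.60 ± 0.34. The 14 without the 2 libraries added Glp1r, the incretin receptor (2.17 ± 0.50), Ucn3, a maturity marker (1.97 ± 0.56), Slc2a2, Ero1lb and Gjd2 to the 9.

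Mafa, Nkx6-1 and Slc2a2 did not pass the test with all libraries. Mafa, the factor of mature beta-cells, was between 0.76 and 1.95 in alpha and between 0.76 and 2.35 in alpha Pdx1 DT, against 6.25 to 8.78 in beta. Its difference from alpha was 0.03 ± 0.49 (adjusted p = 0.978). Nkx6-1, which represses alpha-cell genes in beta-cells, had medians of 6.25 in alpha, 6.23 in alpha Pdx1 DT and 11.91 in beta (0.27 ± 0.37 against alpha, adjusted p = 0.682). Both overlapped alpha, and only alpha Pdx1 DT 6 exceeded the alpha range, at 2.35 for Mafa and 7.66 for Nkx6-1. The direction of Mafa and Nkx6-1 was not stable, since Mafa was at -0.01 with library weights and Nkx6-1 at -0.30 with the ribosomal RNA covariate. Slc2a2 (chr3:28697903-28728361), the main glucose transporter of mouse beta-cells, ran from 4.12 to 7.66 in alpha and from 5.25 to 8.80 in alpha Pdx1 DT. It was at 0.96 ± 0.49 (adjusted p = 0.212), and passed the test at 1.50 ± 0.47 (adjusted p = 0.0238) without the 2 libraries, still far from the 13.99 to 15.37 of beta.

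Among 15 tested beta-cell factor genes, Pdx1 and Mnx1 were called higher and none lower (median 0.03), against 4.06% and 3.75% of all genes. Mnx1, a homeodomain factor that maintains beta-cell identity, was at 1.08 or below in each alpha library and at 2.82, 4.01, 3.27, 4.31, 0.80 and 6.05 in alpha Pdx1 DT. It rose by 2.69 ± 0.59 (limma, adjusted p = 0.0105) and reached less than the 4.59 to 6.43 of beta in 5 of the 6 libraries. These are low values, since the lowest in the data is 0.76 and the first quartile 5.95, which only alpha Pdx1 DT 6 exceeded. Mnx1 reached the level of 5 needed for testing mainly in beta. Without the 2 libraries Glis3, which activates insulin transcription, was also higher (0.95 ± 0.22), making 3 of 15 higher against 10.1% of all genes. In that fit 5 factors shared by islet cell types were lower, against 10.8% of all genes. These were Neurod1 (-1.01 ± 0.23), Rfx6 (-0.79 ± 0.17), Isl1 (-0.73 ± 0.27), Myt1 and St18.

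The upstream sequences of 4 genes are shown because Pdx1 is a homeodomain factor and these genes cover the risers Ins1, Iapp and Tagln3 and the glucose transporter gene Slc2a2, which was not called with all libraries. Each is the 250 bases before the annotated start in RefSeq (GRCm38.p6), written on the strand of the gene, with the 4-base motif TAAT or its reverse complement ATTA in capitals, where overlapping matches are merged. Ins1 lies at chr19:52264047-52264296 (+), Iapp at chr6:142298175-142298424 (+), Tagln3 at chr16:45724532-45724781 (-) and Slc2a2 at chr3:28697653-28697902 (+).
Ins1: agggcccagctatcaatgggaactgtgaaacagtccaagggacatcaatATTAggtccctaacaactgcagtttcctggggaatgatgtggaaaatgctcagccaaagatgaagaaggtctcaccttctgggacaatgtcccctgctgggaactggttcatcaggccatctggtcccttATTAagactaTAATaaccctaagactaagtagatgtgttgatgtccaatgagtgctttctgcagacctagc
Iapp: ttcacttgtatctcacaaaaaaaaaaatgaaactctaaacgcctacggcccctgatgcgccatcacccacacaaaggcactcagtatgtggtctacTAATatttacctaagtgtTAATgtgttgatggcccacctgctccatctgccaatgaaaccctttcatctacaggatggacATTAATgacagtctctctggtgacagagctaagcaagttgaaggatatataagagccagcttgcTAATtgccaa
Tagln3: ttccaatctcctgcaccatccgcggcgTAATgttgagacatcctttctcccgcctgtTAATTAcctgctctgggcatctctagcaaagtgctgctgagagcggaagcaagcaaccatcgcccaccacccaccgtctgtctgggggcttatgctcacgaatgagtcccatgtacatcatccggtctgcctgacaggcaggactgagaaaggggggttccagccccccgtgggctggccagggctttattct
Slc2a2: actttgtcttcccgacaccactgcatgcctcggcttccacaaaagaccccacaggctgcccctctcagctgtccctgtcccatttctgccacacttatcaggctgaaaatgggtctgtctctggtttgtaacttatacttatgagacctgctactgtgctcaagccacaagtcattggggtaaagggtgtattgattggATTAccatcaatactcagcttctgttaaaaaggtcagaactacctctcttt
The windows held 3 matches in Ins1, 5 in Iapp, 3 in Tagln3 and 1 in Slc2a2. The motif is common. It occurred at least once in 54.9% of 32851 promoter windows of the same length, and in at least one window of 58.5% of 27025 genes. Of the 10 highest called genes with a mean of at least 8.5 in the higher group, 8 matched the table and 5 of these held it, and of the 10 lowest by the same rule 6 matched and 5 held it. A match is a description of the letters and no evidence of binding.

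Tagln3, Lrtm1 and Slc39a8 were among the 10 highest risers with a mean of at least 8.5 in the higher group, and were also higher than in beta. Tagln3 (chr16:45711230-45724531), a neuronal protein of the calponin family, was 4.92 to 5.86 in 7 alpha libraries and 11.27 in alpha 8. It was 12.12, 13.35, 11.98, 9.90, 5.67 and 11.57 in alpha Pdx1 DT. It rose by 4.60 ± 0.92 (adjusted p = 0.00765) and lay 4.94 ± 0.94 above beta (adjusted p = 0.000229). Lrtm1, a leucine-rich repeat membrane protein, rose by 3.85 ± 1.00 (adjusted p = 0.0211) and was 5.97 ± 1.03 above beta. Slc39a8 (chr3:135816882-135888572), a plasma membrane importer of zinc and manganese, ran from 3.92 through 4.99 to 9.15 in alpha and from 5.74 through 9.60 to 10.20 in alpha Pdx1 DT. It rose by 3.46 ± 0.60 (adjusted p = 0.00459) and exceeded beta by 1.95 ± 0.61 (adjusted p = 0.0174). Without the 2 libraries no combined library overlapped alpha in these 3 genes, which were picked as top risers. Lrtm1 lost its call without alpha Pdx1 DT 1, 4 or 6 (adjusted p = 0.0568, 0.0583 and 0.0552).

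Mlxipl and Adra2a were also among those 10. Mlxipl, the glucose-responsive transcription factor ChREBP, had medians of 9.38 in alpha, 14.10 in alpha Pdx1 DT and 14.68 in beta. It rose by 3.48 ± 0.70 (adjusted p = 0.0082). Adra2a, the adrenergic receptor through which catecholamines inhibit insulin release, rose by 3.47 ± 1.03 (adjusted p = 0.0381), from a median of 5.37 to 9.67, with 11.34 as the mean of beta. Its call was lost in 9 of the 14 fits that left out 1 library, with an adjusted p of up to 0.105 without alpha Pdx1 DT 6, and the others were those without alpha Pdx1 DT 1, 2, 3 or 4 and without alpha 1, 3, 4 or 6. Zinc transport genes as a list had 2 of 20 higher and none lower, against 4.06% and 3.75% of all genes. These were Slc39a8 and the ubiquitous importer Slc39a1 (0.79 ± 0.25, adjusted p = 0.048). Without the 2 libraries 5 were higher and 0 lower, against 10.1% and 10.8% of all genes. Slc30a8, which loads zinc into insulin granules, was at -0.16 ± 0.20 (adjusted p = 0.635).

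Of the alpha-cell products Ttr fell and Gcg was not called, and the calls of the alpha-cell factors depended on which libraries were fitted. Ttr, a thyroxine and retinol carrier that is among the most abundant alpha-cell transcripts, was at 19.87 or 20.54 in 7 alpha libraries and at 16.98 in alpha 8. In alpha Pdx1 DT it was 16.75, 17.09, 16.28, 16.37, 20.54 and 16.47. It fell by 2.68 ± 0.72 (adjusted p = 0.0256), and by 3.76 without the 2 libraries. Ttr lost its call without alpha Pdx1 DT 1, 3, 4 or 6 (adjusted p from 0.0576 to 0.0724). Gcg, the glucagon gene, took the top value of 22.57 in 7 alpha libraries and 20.54 in alpha 8, and was 18.63, 22.57, 20.54, 22.57, 22.57 and 19.27 in alpha Pdx1 DT. It therefore could not rise, and its difference was -1.29 ± 1.04 (adjusted p = 0.451). It was the most abundant gene in 3 of the 6 combined libraries, alpha Pdx1 DT 5 among them. In alpha Pdx1 DT 3, where it was at 20.54, it ranked next after the ribosomal RNA gene Rn18s-rs5, which held the top value.

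None of 7 tested alpha-cell factors was called (median -0.27), nor was any without the 2 libraries (median -0.45), while 3 were lower (10.4% of all genes) when alpha Pdx1 5, beta 1 and beta 5, of other groups, were left out as well. Irx2, an Iroquois homeodomain factor, was between 11.66 and 12.53 in alpha and at 11.51, 11.38, 11.28, 10.87, 12.18 and 11.02 in alpha Pdx1 DT. Irx1 was at -0.57 ± 0.60 (adjusted p = 0.578) and Irx2 at -0.75 ± 0.55 (adjusted p = 0.402), with 5 of the 6 combined libraries below each alpha library for Irx2. Without the 5 libraries Irx1 fell by 0.89 (adjusted p = 0.0145) and Irx2 by 0.97 (adjusted p = 0.00164). The 14 libraries fitted alone without the 2 gave the same folds (adjusted p = 0.0161 and 0.00122). The fit of all groups without the 2 libraries did not call them (adjusted p = 0.363 and 0.274). The SD within beta was 2.16 for Irx1 and 2.00 for Irx2. Without the 2 libraries the SD was 0.46 and 0.29 in alpha and 0.41 and 0.26 in alpha Pdx1 DT. Irx1 and Irx2 were at 8.94 and 9.67 in beta 1 and at 9.08 and 9.76 in beta 5. The other beta libraries were at 5.47 or below and 6.30 or below. Whether this spread cost the calls was not tested separately, and a missing call does not show that a factor was unchanged. The alpha-cell effectors had 2 of 13 lower (3.75% of all genes), Ttr and Tmem27 (-1.16 ± 0.34), which is collectrin, and none higher (median -0.55). Without the 2 libraries 6 were lower (10.8% of all genes), with Sstr2, the somatostatin receptor (-1.57 ± 0.50), and the cationic amino-acid transporter Slc7a2 (-1.21 ± 0.28) among them.

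Beside Ttr, the 10 lowest called genes with a mean of at least 8.5 in the higher group held 9 that are not on the alpha-cell lists. Upk3a, a uroplakin, was between 10.21 and 11.97 in 7 alpha libraries and at 5.80 in alpha 8. It was 4.97, 3.32, 4.29, 4.10, 11.30 and 4.76 in alpha Pdx1 DT, and fell by 5.15 ± 0.96 (adjusted p = 0.00527). Its difference from beta was 0.01 ± 0.99 (adjusted p = 0.995). Itih2, a heavy chain of the inter-alpha-trypsin inhibitors, fell by 3.63 ± 0.83 (adjusted p = 0.0132), from a median of 10.51 to 5.89. Hes1, a repressor induced by Notch, fell by 2.28 ± 0.50 (adjusted p = 0.0111), from a median of 9.03 to 5.87. Corin, a serine protease that activates natriuretic peptides, fell by 2.05 ± 0.36 (adjusted p = 0.00459), and Kcnn2, a small-conductance calcium-activated potassium channel, by 1.92 ± 0.38 (adjusted p = 0.00527). Spats2l fell by 1.93 ± 0.38, the antitrypsin gene Serpina1b by 2.04 ± 0.55, LOC101056140 by 2.30 ± 0.62 and Drc1, of the dynein regulatory complex of motile cilia, by 2.04 ± 0.62. Upk3a, Itih2, Hes1, Corin, Kcnn2 and Spats2l kept their calls when any one of the 14 libraries was left out. Drc1 kept its call in only 4 of those 14 fits (adjusted p up to 0.131 without alpha Pdx1 DT 6), LOC101056140 in 10 and Serpina1b in 12, and the libraries whose omission ended a call were alpha Pdx1 DT 1, 2, 3, 4 and 6 and alpha 1, 2, 3, 4 and 6 for Drc1, alpha Pdx1 DT 2, 3, 4 and 6 for LOC101056140, and 4 and 6 for Serpina1b.

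Genes of peptide secretion moved in both directions. Of 10 tested genes for other islet peptides, 3 were higher and none lower (median 1.04), and 4 and 0 without the 2 libraries. Over all genes 4.06% were higher and 3.75% lower, and 10.1% and 10.8% without the 2 libraries. Vip, vasoactive intestinal peptide, was at 3.67 or below in 7 alpha libraries and at 7.39 in alpha 4. It ran from 4.45 through 7.99 to 9.55 in alpha Pdx1 DT and rose by 4.35 ± 0.84 (adjusted p = 0.00527). Tac1, which encodes substance P, rose by 3.75 ± 0.85 (adjusted p = 0.0121) and Npy, neuropeptide Y, by 2.99 ± 0.77 (adjusted p = 0.019). Pyy, peptide YY, had medians of 16.90 and 19.87 and was at 2.17 ± 0.98 (adjusted p = 0.159), with a rise of 3.46 ± 0.82 (adjusted p = 0.00462) without the 2 libraries. Ppy (1.04 ± 0.69, adjusted p = 0.353) and Sst (0.84 ± 0.83, adjusted p = 0.55), the hormones of PP- and delta-cells, did not pass in either fit. Ppy was called at 1.56 without the 5 libraries (adjusted p = 0.00496) and in the 14 libraries alone without the 2 (adjusted p = 0.0288). Among 14 prohormone processing and granin genes 2 rose and 2 fell, and 3 rose and 2 fell without the 2 libraries, where the fallers were near the 10.8% of all genes. Scg2, a granin, was at 0.94 ± 0.29 and Ptprn, a granule membrane protein, at 0.84 ± 0.21, whereas Cpe, the carboxypeptidase that trims prohormone fragments, was at -1.83 ± 0.47 and Scg5, the chaperone of the convertase PC2, at -0.58 ± 0.17. The convertases Pcsk1 (0.56 ± 0.48, adjusted p = 0.482) and Pcsk2 (-0.26 ± 0.19, adjusted p = 0.398) were not called.

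Receptors, exocytosis proteins and calcium and sodium channels had more risers than fallers, and potassium channels as many of each with all libraries. These counts and those of the lists after them stand against 4.06% of all genes higher and 3.75% lower, and 10.1% and 10.8% without the 2 libraries. In the fit without the 2 libraries the fallers of the receptor and potassium channel lists (3 of 22 each) were near that share. So were the fallers of the exocytosis list and of the calcium and sodium channel list (2 of 23 each). Of 22 receptor genes 6 were higher and none lower (median 0.76), and 11 and 3 without the 2 libraries. Chrm3, the muscarinic receptor that potentiates insulin release, rose by 3.23 ± 0.59 (adjusted p = 0.00459), from a median of 4.95 to 8.47. Casr, the calcium-sensing receptor, rose by 0.96 ± 0.30 and Igf1r by 0.87 ± 0.23. Of 23 exocytosis genes 5 were higher and none lower (median 0.10), and 7 and 2 without the 2 libraries. The vesicle SNARE gene Vamp2 rose by 1.25 ± 0.24 (adjusted p = 0.00527) and the granule GTPase gene Rab3a by 0.96 ± 0.24 (adjusted p = 0.0152). Rab3a was between 8.60 and 9.79 in alpha and between 9.89 and 10.78 in alpha Pdx1 DT, with no overlap even with the 2 libraries in place. It was named as a strong call of its list, and the share of all genes without overlap was not counted. The complexin gene Cplx1 rose by 2.84 ± 0.84 from low values. Of 23 calcium and sodium channel genes 4 were higher and none lower (median 0.08), and 5 and 2 without the 2 libraries. The calcium channel subunit gene Cacna2d3 rose by 2.81 ± 0.69, Ryr3, which releases calcium from internal stores, by 2.70 ± 0.64 and Cacna2d2 by 2.56 ± 0.72. Cacna2d3 and Ryr3 were 2.92 ± 0.71 and 2.76 ± 0.66 above beta. Of 22 potassium channel genes 1 rose, Kcnip1 (2.61 ± 0.70), and 1 fell, Kcnn2, against 7 and 3 without the 2 libraries.

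Of 31 insulin signalling genes 3 rose and none fell (median 0.19), and 6 rose and 1 fell without the 2 libraries. The regulatory kinase subunit gene Pik3r1 rose by 1.16 ± 0.24 (adjusted p = 0.0082), the transcription factor gene Foxo1 by 0.90 ± 0.22 (adjusted p = 0.0152) and Igf1r as above. Insr, the insulin receptor, ran from 11.30 to 12.29 in alpha and from 11.76 to 12.41 in alpha Pdx1 DT (0.37 ± 0.14, adjusted p = 0.0824). It passed at 0.48 ± 0.14 (adjusted p = 0.0175) without the 2 libraries, at 0.45 without alpha Pdx1 DT 5 and at 0.44 without alpha 5. None of 7 Hedgehog genes was called (Sufu alone, higher, without the 2 libraries), with Smo, the signal transducer, at 0.20 ± 0.32 (adjusted p = 0.727; -0.06 with the leukocyte covariate) and the receptor gene Ptch1 at 0.24 ± 0.19 (adjusted p = 0.433). Of 16 Notch genes Hes1 alone was called, and 3 were lower without the 2 libraries.

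Against 4.06% of all genes higher and 3.75% lower, the glucose, unfolded protein and immediate early lists held 1 riser each, near that share, and the respiratory chain list had more fallers and the amino-acid list more risers than it. Glucose sensing and glycolysis had 1 of 22 genes higher, G6pc2, and none lower (median 0.43). Without the 2 libraries 9 were higher and 1 lower, against 10.1% and 10.8% of all genes, so its risers were then above that share. Of 28 respiratory chain genes 3 fell and none rose (median -0.18), namely Ndufb5 (-0.69 ± 0.22), Ndufa4 (-0.62 ± 0.18) and Atp5a1 (-0.59 ± 0.15), and 5 fell without the 2 libraries. Amino-acid transporters had 3 of 23 higher and none lower (6 and 3 without the 2 libraries), with Slc6a6, the taurine carrier, at 1.21 ± 0.23, Slc36a4 at 0.93 ± 0.22 and Slc7a5, the large neutral amino-acid carrier, at 0.77 ± 0.23. The unfolded protein response list had 1 of 24 higher, the sensor Atf6 (0.62 ± 0.15), and the immediate early list 1 of 21, Egr3 (1.84 ± 0.55). These lists had 3 higher and 0 lower and 2 higher and 3 lower without the 2 libraries, with risers near the 10.1% of all genes. None of 20 genes that beta-cells keep silent was called (Hk1 higher and Smad3 and Oat lower without the 2 libraries), with the lactate dehydrogenase gene Ldha at 2.14 ± 0.98 (adjusted p = 0.159) and the lactate carrier gene Slc16a1 at 0.38 ± 0.70 (adjusted p = 0.767). Of 10 progenitor genes Hes1 alone was called, and Neurog3, the endocrine progenitor factor, was at 1.43 ± 0.64 (adjusted p = 0.146). No gene was called among 20 cell cycle genes (Mki67 0.04 ± 0.62, Top2a -0.40 ± 0.51) or 19 interferon response genes (Stat2 0.43 ± 0.19). Without the 2 libraries the cyclin-dependent kinase inhibitor genes Cdkn1a and Cdkn1c and the cyclin gene Ccnd3 were higher and Ifit1 was lower.

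**Figure D3:**
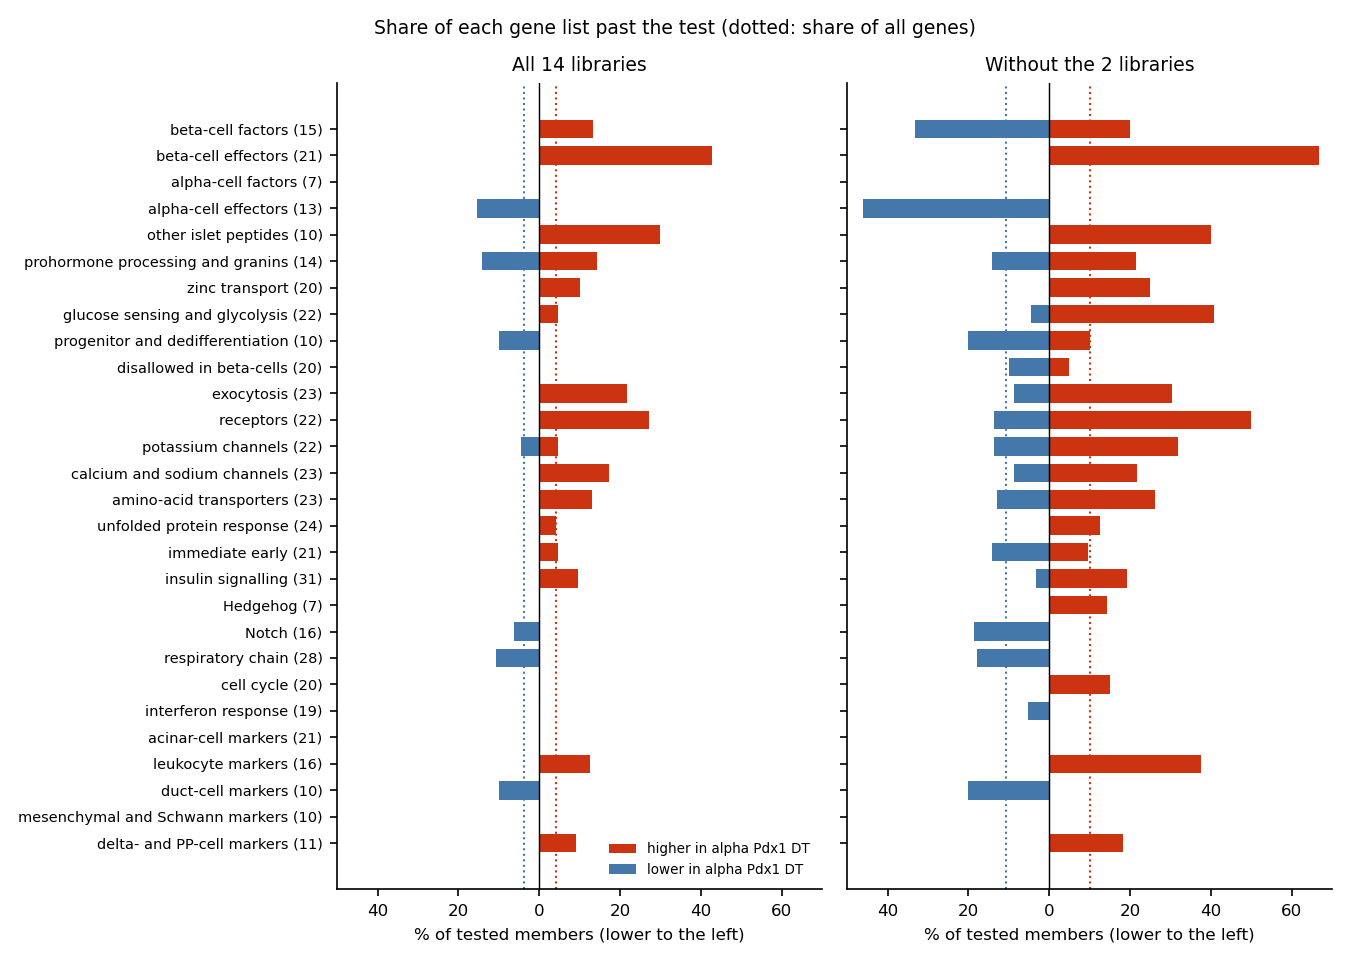
Percent of the tested members of each gene list (number in brackets) that were called higher (red, right) or lower (blue, left) in alpha Pdx1 DT, with all 14 libraries and without the 2 libraries. Dotted lines are the shares of all genes (4.06% and 3.75% on the left, 10.1% and 10.8% on the right), and 9 of 21 beta-cell effector genes are higher with all libraries.

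The fold changes of the combination were set beside those of each factor alone. These 3 comparisons share the 8 alpha libraries, so likeness between them is no independent evidence and only the values are given. With all libraries 3.26% of genes were called in alpha DT and 4.33% in alpha Pdx1, and 3.4% and 6.7% without the 2 libraries. Tagln3, Slc39a8, G6pc2 and Iapp were called with Pdx1 alone and not with ablation alone. Tagln3 was at 4.95 ± 0.97 in alpha Pdx1, -0.91 ± 1.04 in alpha DT and 4.60 in the combination, and Slc39a8 was at 3.62 ± 0.63, 0.87 ± 0.68 and 3.46. G6pc2 was at 3.43 ± 0.74, -0.68 ± 0.80 and 3.54, and Iapp at 4.91 ± 0.90, 0.85 ± 0.96 and 3.32. Ins1, at 3.71 ± 1.09 in alpha Pdx1 (limma, adjusted p = 0.0524), and Ffar1, at 1.62 ± 0.53 (adjusted p = 0.0776), were called there only without the 2 libraries (4.36 ± 0.65 and 1.83 ± 0.37). Mean Ins1 was 13.7 in alpha (13.0 without alpha 8), 13.3 in alpha DT, 17.4 in alpha Pdx1 and 17.9 in alpha Pdx1 DT (19.0 without alpha Pdx1 DT 5). Mean Ins2 was 14.2 (13.5), 13.8, 18.1 and 17.7 (18.7) in the same order. Slc39a8 was then called in alpha DT as well (1.38 ± 0.37, adjusted p = 0.0348).

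Vip, Npy, Vamp2, Kcnn2 and Hes1 were called with ablation alone and not with Pdx1 alone. Vip was at 5.66 ± 0.95 in alpha DT, -0.56 ± 0.89 in alpha Pdx1 and 4.35 in the combination, and Npy at 4.51 ± 0.88, -0.86 ± 0.82 and 2.99. Vamp2 was at 1.38 ± 0.27, -0.44 ± 0.26 and 1.25, Kcnn2 at -2.64 ± 0.42, -0.84 ± 0.40 and -1.92, and Hes1 at -2.04 ± 0.57, -1.11 ± 0.53 and -2.28. Hes1 was called with Pdx1 alone too when the 2 libraries were left out (-1.47 ± 0.42, adjusted p = 0.0287). Upk3a was called lower in all 3 comparisons, at -4.43 ± 1.08 in alpha DT, -3.79 ± 1.01 in alpha Pdx1 and -5.15 in the combination. From low values, Mnx1 was at 0.41 ± 0.67 and 0.85 ± 0.62 with the single factors and was called only in the combination. Whether that differs from the sum is tested next.

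**Figure D4:**
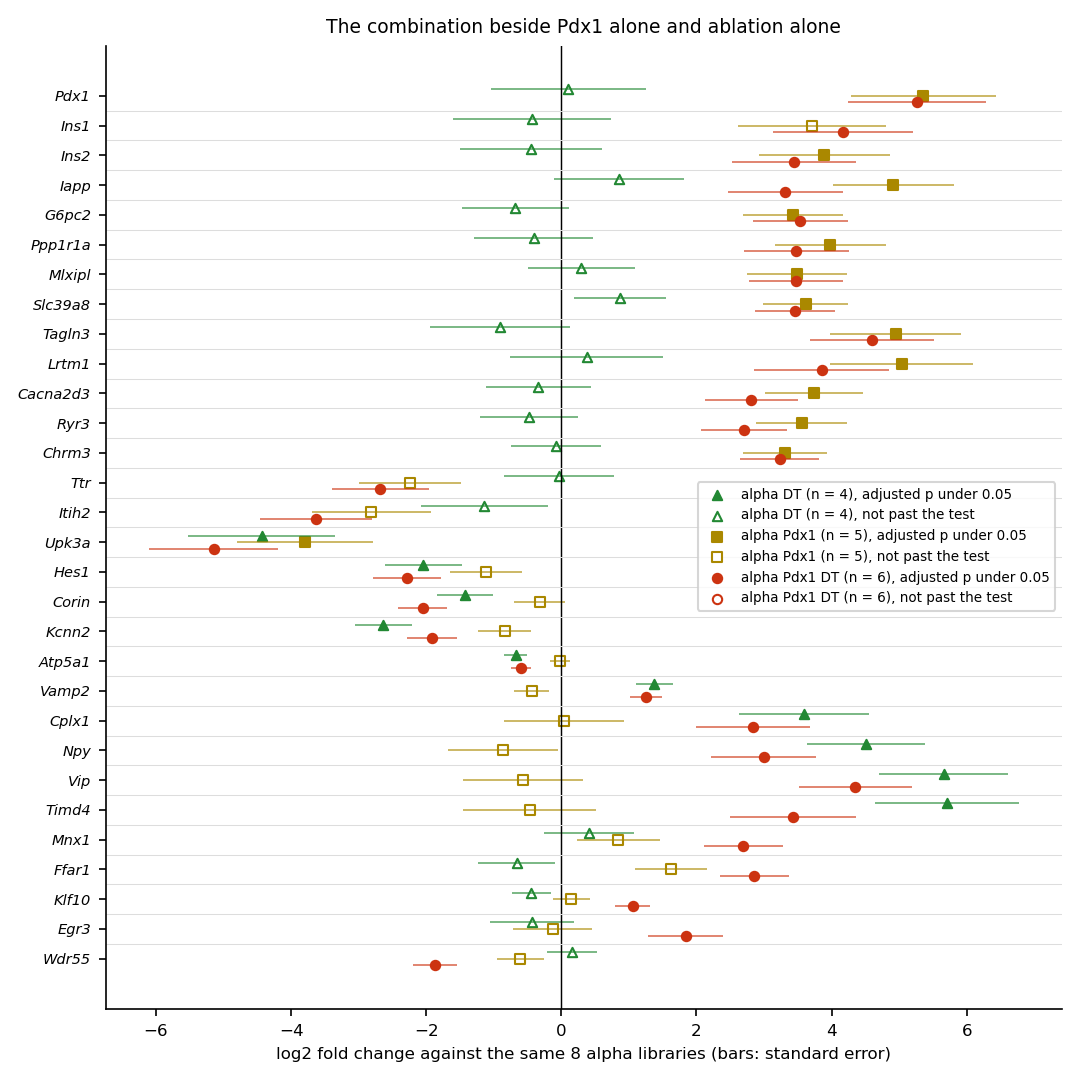
Log2 fold change against the same 8 alpha libraries (x axis) of 30 genes in alpha DT (triangles), alpha Pdx1 (squares) and alpha Pdx1 DT (circles), with standard errors. Filled symbols have an adjusted p under 0.05. Red circles lie nearer to squares than to triangles for Pdx1 to Chrm3 and nearer to triangles for Hes1 to Vip, with gaps of differing size. For Mnx1, Ffar1, Klf10, Egr3 and Wdr55 they lie beyond both, as they also do for other genes shown, such as Ins1, Upk3a and Hes1. The interaction test called none of these genes, so the order of the points is a description.

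Whether the combination differed from the sum of its factors was tested as an interaction in the same limma fit. No gene was called (percent called 0.0), with 1527 genes at an unadjusted p under 0.05. The count was also 0 without the 2 libraries (1639 at an unadjusted p under 0.05), and 1 with library weights. On simulated data of this design the interaction test recovered 9 of 50 genes at a log2 size of 1 and 42 of 50 at 2. The simulated noise was independent between genes and libraries, and only genes above the median level were changed. Recovery in the real data may therefore differ, and departures of either size could be missed. Ffar1 was at 1.90 ± 0.81 (adjusted p = 0.489) in that test, Mnx1 at 1.44 ± 0.94 (adjusted p = 0.652), Iapp at -2.45 ± 1.35 (adjusted p = 0.593) and Slc2a2 at 1.92 ± 0.79 (adjusted p = 0.473).

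Wdr55, Klf10, Klc2 and Ccdc85b were called in the same direction in the combination against each of the 3 other alpha-cell groups. They were picked by the size of their difference from alpha, under the level and name rules of the named genes. How many of all genes were called against all 3 groups is not given here. Against alpha DT 2.1% of genes were called and against alpha Pdx1 9.22%. Wdr55, a WD-repeat protein of the nucleolus, was between 8.14 and 9.22 in alpha and at 6.67, 7.10, 6.34, 5.83, 8.42 and 5.58 in alpha Pdx1 DT. It was lower than in alpha by 1.87 ± 0.33 (adjusted p = 0.00459), with differences of -2.02 ± 0.39 from alpha DT (adjusted p = 0.00531) and -1.26 ± 0.37 from alpha Pdx1 (adjusted p = 0.0288). Klf10, a zinc-finger factor induced by TGF-beta, was higher than alpha by 1.05 ± 0.26, than alpha DT by 1.50 ± 0.30 and than alpha Pdx1 by 0.90 ± 0.28. Klc2, a kinesin light chain, was higher by 1.13 ± 0.28, 1.30 ± 0.34 and 1.07 ± 0.32 in the same order. Ccdc85b was higher than alpha by 1.08 ± 0.33. Wdr55 kept its call against alpha when any one of the 14 libraries was left out. The others did not. Without alpha Pdx1 DT 6 the adjusted p was 0.059 for Klf10, 0.0688 for Klc2 and 0.121 for Ccdc85b, which was called in 4 of the 14 such fits. Ccdc85b also lost its call without alpha Pdx1 DT 1, 2, 3 or 4 or alpha 1, 2, 4, 6 or 8. Mean Rn18s-rs5 was 20.99 in alpha Pdx1 DT and 17.31 in alpha Pdx1. Its part in the difference between these groups was not tested. Against alpha, without the 2 libraries and with Rn18s-rs5 as a covariate, Klc2 was at 0.689 (limma, adjusted p = 0.197) and Ccdc85b at 0.461 (adjusted p = 0.575). Wdr55 and Klf10 kept their calls in that fit.

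Against beta-cells the combined libraries differed in both directions. In that contrast 4371 genes were called (26.3%), 2140 higher (12.9%) and 2231 lower (13.4%) in alpha Pdx1 DT. Of the 21 beta-cell effectors 15 remained lower than in beta and 2 were higher (median -3.33). Ins1 differed from beta by -4.12 ± 1.07 (adjusted p = 0.00509) and Ins2 by -2.67 ± 0.95 (adjusted p = 0.0383). Slc2a2 was at -7.44 ± 0.51 and Mafa at -6.45 ± 0.50. Iapp was at -1.68 ± 0.87 (adjusted p = 0.167). Of 7 alpha-cell factors 6 were higher than in beta and none lower, with Irx1 at 4.84 ± 0.62 and Irx2 at 4.53 ± 0.57. Gcg held the top value of 22.57 in beta 1 and beta 5, against 15.16 to 17.92 in the other 5, and in the library labelled alpha Pdx1 5 Ttr was at 20.54. Without these 3 and the 2 libraries 4247 genes were called (25.5%), higher in 12.3% and lower in 13.2%. In that fit 2 of the beta-cell effectors were higher and 18 lower, 6 of the alpha-cell factors were higher and 1 lower, Ins1 was at -3.55 ± 0.56 and Iapp passed the test at -1.07 ± 0.40 (adjusted p = 0.0495).

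A ribosomal RNA gene and some leukocyte markers were higher in alpha Pdx1 DT than in alpha, while most markers of other cells were not called. Rn18s-rs5, an 18S ribosomal RNA gene whose share varies with RNA quality and library preparation, was 17.68, 17.92, 19.87, 19.27, 20.54, 19.87, 20.54 and 18.63 in alpha and 19.87, 20.54, 22.57, 20.54, 19.87 and 22.57 in alpha Pdx1 DT. It was higher by 1.70 ± 0.46 (adjusted p = 0.0252) and took the top value in alpha Pdx1 DT 3 and 6. The summed level of 16 leukocyte markers ran from 8.90 to 12.33 (log2) in alpha and from 9.02 to 16.19 in alpha Pdx1 DT, with the highest values in alpha Pdx1 DT 6 (16.19) and 4 (14.40). Timd4, a receptor of resident macrophages (3.43 ± 0.94), and C1qa, a complement gene (1.93 ± 0.56), were called higher, 2 of 16 (median 1.89) against 4.06% of all genes. Without the 2 libraries 6 were higher against 10.1%, with Lyz2 (3.48 ± 1.18), Tyrobp, Csf1r and Fcer1g in addition. In alpha DT against alpha 6 of the 16 were called higher (median 2.54), against 1.57% of all genes. Ptprc, the defining pan-leukocyte marker, was at 0.55 ± 0.95 (adjusted p = 0.751), and none of the 16 was below 5 in all 14 libraries. With the leukocyte mean as a covariate, chosen after seeing the data, 118 genes were called, 97 higher. Of the 26 called genes followed across settings 14 lost the call. Ins1 was at 3.71 (adjusted p = 0.101), Ttr at -2.44 (0.12), Ins2 at 2.96 (0.127) and Iapp at 3.05 (0.104), and the others were Lrtm1, Ppp1r1a, Adra2a, Itih2, LOC101056140, Drc1, Serpina1b, Klc2, Ccdc85b and Klf10. The 12 still called were Pdx1, Slc39a8, G6pc2, Ffar1, Tagln3, Mlxipl, Upk3a, Hes1, Corin, Spats2l, Kcnn2 and Wdr55. Without the 2 libraries and with that covariate 1995 genes were called and Ins1 was at 5.99. Without alpha Pdx1 DT 4, 5 and 6 and alpha 8 there were 1814.

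**Figure D5:**
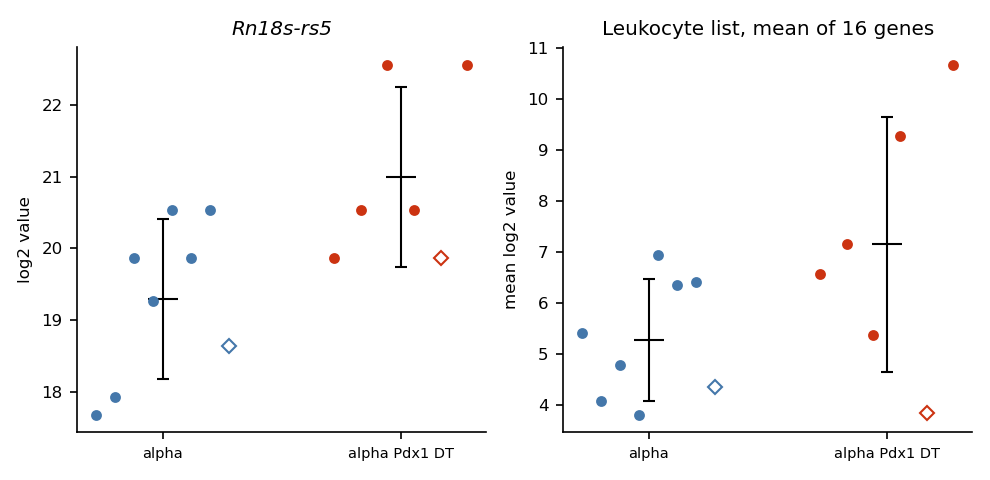
Log2 value of Rn18s-rs5 (left) and mean log2 value of 16 leukocyte markers (right) in each library of alpha and alpha Pdx1 DT, with black marks for the mean and bars for the SD. Open diamonds are alpha 8 and alpha Pdx1 DT 5, and the leukocyte mean is highest in alpha Pdx1 DT 4 (9.27) and 6 (10.67).

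With the ribosomal RNA covariate the fold changes were 4.73 for Pdx1, 3.39 for Ins1, 2.79 for Slc39a8 and -1.92 for Ttr, and without the 2 libraries the same covariate left 5.49 for Ins1 (adjusted p = 0.000119) and -3.07 for Ttr (adjusted p = 0.00553), both called. Markers of acinar cells summed to between 11.40 and 18.01 in alpha and between 10.61 and 19.06 in alpha Pdx1 DT, and none of 21 was called. Of 10 duct-cell markers Krt7 fell (-1.17 ± 0.28) and none rose. Of 11 delta- and PP-cell markers Ptprz1 rose (2.09 ± 0.64), of 3 endothelial and 10 mesenchymal and Schwann-cell markers none was called. Single calls in lists this short stand beside 4.06% of all genes higher and 3.75% lower. Beyond the covariate values given here, the part of ribosomal RNA and of leukocyte transcripts in the results was not tested.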

How the data were processed

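RNA of sorted islet cells was isolated on micro columns before reverse transcription, per the labels' protocols. The submitters' processing notes name GSNAP as the aligner and GRCm38 as the build. The GSNAP version, the gene models and how reads were counted are not given in the sources used here. One table holds the log2 values the authors deposited for 17775 genes in 30 libraries, and its equal quartiles (5.95, 8.55 and 10.37) show quantile normalization. Names of 137 genes are numbers. Depth is unknown.

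A gene was tested where 4 or more libraries reached 5 (16633 genes). limma 3.58.1 in R 4.3.3 was run on all 30 libraries, with 1 mean per group, a trend of variance with level, robust empirical Bayes, two-sided p-values and Benjamini-Hochberg adjustment within each contrast. On simulated data the comparison with alpha recovered 30 of 50 genes at a log2 size of 1 and 50 of 50 at 2, with 4 false calls. The simulated noise was independent between genes and libraries and the changed genes lay above the median level, so recovery in the real data may differ. Replicates were numbered in accession order. Named genes were a set of hormone, identity and signalling genes, the 10 highest and 10 lowest called both with and without the 2 libraries (mean of at least 8.5 in the higher group, no numbers or Gm, Rik or -ps names), in each list the 3 strongest calls each way or, with none called, its first 2 members, and up to 5 genes called against each alpha-cell group. A few genes these rules or lists held are not reported here. Other list members named were chosen after their values were seen. Members and lists (30 lists, 473 genes tested) were chosen with earlier results of these data known. Alternatives covered filters, an offset, variance settings, weights, rescaling, covariates, a test against a fold change, fewer groups and omitted libraries. The leukocyte covariate, covariates without the 2 libraries, and omission of alpha Pdx1 DT 4 and 6 were added after the data were seen. Python 3.11.15 made tables and figures. Coordinates are GRCm38.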

Additional observations from a re-analysis of the deposited data

Results flagged for a closer look

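In 74 groups of values (37 named genes in alpha and in alpha Pdx1 DT) 32 held 1 library that stood apart from the rest of its group by Dixon's 95% criterion, which chance meets in about 1 of 20 groups of unrelated values. The 32 cannot be read against that share, since 2 libraries were picked by Pdx1, many of these genes were named because they differ between the groups, and genes of 1 library are not independent. The library labelled alpha 8 gave 16 of them and the library labelled alpha Pdx1 DT 5 gave 15, and each time the value lay towards the other group. In alpha 8 the values were 11.23 for Pdx1, 9.15 for Slc39a8, 16.98 for Ttr, 19.27 for Ins2, 17.92 for Iapp and 20.54 for Gcg. They were 13.70 for G6pc2, 22.57 for Pyy, 11.27 for Tagln3, 9.95 for Lrtm1, 13.21 for Ppp1r1a and 13.96 for Mlxipl. Among genes lower in the combination, alpha 8 had 5.80 for Upk3a, 5.76 for Itih2, 7.88 for Serpina1b and 7.56 for Spats2l.

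In alpha Pdx1 DT 5 the values were 5.51 for Pdx1, 12.11 for Ins1, 5.74 for Slc39a8, 20.54 for Ttr, 12.77 for Ins2 and 12.13 for Iapp. They were 9.41 for G6pc2, 4.51 for Ffar1, 15.69 for Ppy, 5.32 for Lrtm1, 7.96 for Ppp1r1a, 9.64 for Mlxipl and 2.69 for Adra2a, and 11.30 for Upk3a and 11.21 for LOC101056140. The remaining value was Klc2 at 7.11 in alpha 1, below 8.09 to 8.77 in the other 7.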

How the results depend on the processing

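The count of 1299 genes stayed within 1.5 times under 7 of 17 other settings. It moved to 3519 with library weights, 338 with ribosomal protein scaling (60.7% of calls higher against 52.0% as reported), 0 with the Rn18s-rs5 covariate (1991 at an unadjusted p under 0.05), 3472 without the 2 libraries, 3371 without these and alpha Pdx1 5, beta 1 and beta 5, 0 in the 14 libraries alone (3839), 2626 there without the 2, 0 in limma's test against a log2 fold change of 1 (302), 118 with the leukocyte covariate (82.2% higher) and 1995 with that covariate without the 2. Leaving out 1 library gave 307 (alpha Pdx1 DT 6) to 3487 (alpha Pdx1 DT 5), with 511, 803, 782 and 453 without alpha Pdx1 DT 1, 2, 3 and 4 and 814, 804, 785 and 766 without alpha 1, 3, 4 and 6. The interaction count was 0 in each fit except 1 with library weights. Fewer samples enter the fits without libraries or groups; otherwise the cause was not tested.

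Of 26 called named genes 14 kept the call in each fit without 1 library and none changed sign in any fit; all 26 lost it with the Rn18s-rs5 covariate, in the 14 libraries alone and against a fold change of 1. Signs turned for uncalled genes. Mafa was at -0.009 with weights, -0.052 with Rn18s-rs5, -0.176 without the 2 and alpha Pdx1 DT 4 and 6, and from -0.21 to 0.143 in the fits without 1 library (below 0 in 6 of them, -0.018 and -0.21 without alpha Pdx1 DT 1 and 6, -0.021, -0.027, -0.002 and -0.027 without alpha 3, 4, 5 and 6). Nkx6-1 was at -0.304 with Rn18s-rs5 and -0.241 so without the 2, and Smo at -0.064 with the leukocyte covariate and from -0.038 (without alpha Pdx1 DT 4) to 0.352 in the fits without 1 library. No paired analysis was possible because the replicate numbers were given in accession order and the labels carry none that pair the groups.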
